A study of Homo sapiens with 6 samples.

Results

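The parvin and ILK adhesion complex genes were compared between parental and lenvatinib-resistant liver cancer cells. They are 10 genes of the 26184 genes and loci in the table, namely PARVA, PARVB, PARVG, ILK, LIMS1, RSU1, FERMT1, FERMT2, TLN1 and PXN, and each was found by its symbol. The set was chosen by the counts of these same libraries, with the difference of PARVB and its partners between the lines known. The members' differences are therefore given as a description with no p-value, and their calls in the fit across all genes are only counted beside the share of all genes called. The series holds 6 RNA libraries, 3 per line, from parental (Huh7 P) and resistant (Huh7 LR) cells. Huh7 is an established human hepatocellular carcinoma cell line. Both groups are labelled WT, and Huh7 P received no lenvatinib, an inhibitor of receptor tyrosine kinases such as the VEGF and FGF receptors. Huh7 LR was derived from the parental cells by exposure to lenvatinib that was raised from 1 to 20 µM over 10 months. The resistant cells are a single derived line, so the 3 Huh7 LR samples are separate plates of that line and p-values measure the spread between these samples. The resistant line was kept in medium with 20 µM lenvatinib, but whether the drug was present in the plates harvested for RNA is not stated. The sample labels describe extraction from an insect and name a mouse genome build, whereas the identifiers in the table are those of human genes. The libraries held 62738937 to 71427573 counts, and levels are given in CPM (a count scaled to library size with edgeR's TMM factors). At this depth a count of 0 allows up to 0.042 to 0.0478 CPM, taken as 3 counts over the library total without TMM factors. These limits cover counting error only.

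Integrins are transmembrane receptors that bind the extracellular matrix outside the cell and are coupled to actin inside it. ILK (integrin-linked kinase, a pseudokinase), a PINCH protein and a parvin form a ternary complex, in which the parvin binds the ILK pseudokinase domain and contributes the link to actin. Talins and kindlins bind the cytoplasmic tails of beta integrins and activate them. Paxillin is a scaffold that binds parvins, kindlins and focal adhesion kinase. PARVA and PARVB are widely expressed parvins that compete for ILK, whereas PARVG is largely restricted to blood cells.

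The gene that differed most was PARVB (beta-parvin), so the sequences ahead of its annotated starts are shown first. RefSeq places starts of PARVB at 2 positions on the plus strand of chromosome 22 (GRCh38.p14), 44804 bases apart. Promoter windows of 300 bases, from 250 bases before to 50 bases after the start, were searched on both strands. Of each window, the stretch before the first annotated transcript is printed. Capitals mark matches to the GC box GGGCGG, the core letters bound by Sp1-family factors, and adjacent matches run together.
PARVB upstream start, chr22:44024052-44024276, plus strand: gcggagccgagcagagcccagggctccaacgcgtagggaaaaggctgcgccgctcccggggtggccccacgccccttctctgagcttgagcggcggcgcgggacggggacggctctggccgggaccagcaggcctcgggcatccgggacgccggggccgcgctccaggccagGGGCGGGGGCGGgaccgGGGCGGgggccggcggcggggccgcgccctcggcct
PARVB downstream start, chr22:44068856-44069060, plus strand: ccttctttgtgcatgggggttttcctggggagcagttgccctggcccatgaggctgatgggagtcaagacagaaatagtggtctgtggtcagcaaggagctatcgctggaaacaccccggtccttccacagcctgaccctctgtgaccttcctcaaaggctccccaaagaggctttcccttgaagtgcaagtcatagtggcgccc
The upstream window held 4 GC boxes, 3 of them in the printed stretch, and the downstream window held none. A GC box was present in 45.0% of the 35116 promoters in the table. The upstream window contained 46 CpG dinucleotides and 82.0% G or C, and the downstream window contained 11 CpG and 60.7% G or C. The median promoter held 14 CpG and 58.7% G or C, so that 97.1% of promoters held fewer CpG than the upstream window and 45.3% held fewer than the downstream window. The TATA box letters TATAAA occurred in neither window and in 11.5% of all promoters. The E-box CACGTG was absent from both and present in 7.26% of promoters. The CCAAT box was absent from both and present in 34.6%, and the TEAD motif GGAATG was absent from both and present in 14.0%. These letters describe the windows and do not show which start was used. Promoter sequence was matched for 8 of the 10 members.

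Among the parvins, PARVB was low in all Huh7 LR libraries. PARVB (ENSG00000188677, chromosome 22, 43999211 to 44172949 on GRCh38) was at 7.29, 8.20 and 8.82 CPM in the Huh7 P libraries and at 0.307, 0.471 and 0.410 CPM in the Huh7 LR libraries. The 2 lines did not overlap. The raw counts behind these values were 523, 506 and 577 for the parental line and 20, 33 and 28 for the resistant line, so the gene was still detected in every resistant library. The mean was 8.10 ± 0.773 CPM in Huh7 P and 0.396 ± 0.083 CPM in Huh7 LR (SD, n = 3 per line), and the fitted level was 20.3-fold lower (log2 fold change -4.34, SE 0.19). In a bulk sample, fewer cells that express a gene and less RNA of it per cell cannot be told apart.

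PARVA (alpha-parvin, ENSG00000197702, chromosome 11, 12377185 to 12535356) was at 8.24, 7.60 and 7.14 CPM in Huh7 P and at 8.30, 12.8 and 11.1 CPM in Huh7 LR. Every Huh7 LR value lay above every Huh7 P value, but Huh7 LR replicate 1 exceeded Huh7 P replicate 1 by only a small margin. The log2 fold change was 0.49 (SE 0.15), and it was 0.35 without Huh7 LR replicate 2, the highest library. PARVG (gamma-parvin, ENSG00000138964, chromosome 22, 44172956 to 44219533), which starts directly after PARVB on the same strand, had 0 counts in all 6 libraries. It could not be tested. It was therefore below the limit of 0.042 to 0.0478 CPM that a count of 0 allows, and no difference between the lines could be measured.

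**Figure D1:**
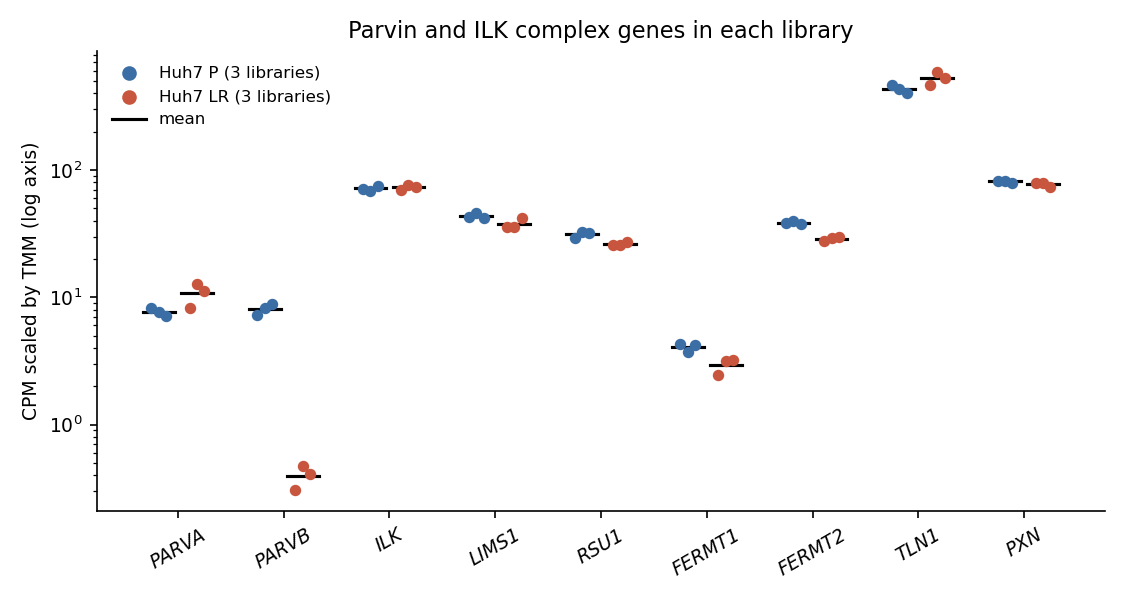
Level of each member in CPM (TMM-scaled, log axis) in the 3 Huh7 P and 3 Huh7 LR libraries, 1 point per library with the mean as a line. PARVG, at 0 in all libraries, is not drawn. PARVB lies at 7.29 to 8.82 CPM in Huh7 P and 0.307 to 0.471 CPM in Huh7 LR, whereas the other 8 members lie much closer together between the lines.

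The balance between the parvins differed when levels were set per transcript length. FPKM, which the authors scaled for length and library size, allows levels of different genes to be set side by side. PARVA made up 43.8%, 39.5% and 36.7% of the summed parvin FPKM in the parental libraries, against 90.0%, 86.1% and 88.1% in the resistant ones. The mean share was 40.0% ± 3.56 for the parental and 88.0% ± 1.94 for the resistant line (SD, n = 3 per line). The summed parvin level was 2.39 ± 0.0554 FPKM in Huh7 P and 1.53 ± 0.404 FPKM in Huh7 LR, and the sum was lower in every Huh7 LR library than in any Huh7 P library. With CPM divided by the annotated exon length of each gene in place of FPKM, the PARVA share was 35.3% and 94.0%. On that scale the summed parvin level was 1.69 ± 0.0617 in Huh7 P and 0.889 ± 0.189 in Huh7 LR, in CPM per kilobase. The other families kept their leading member. FERMT2 held 90.4% of the kindlin FPKM in Huh7 P and 89.1% in Huh7 LR, TLN1 held 95.9% and 94.8% of the talin FPKM, LIMS1 held 99.8% and 98.2% of the summed LIMS1 and LIMS2 FPKM, and PXN held 94.5% and 91.0% of the paxillin family FPKM.

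**Figure D2:**
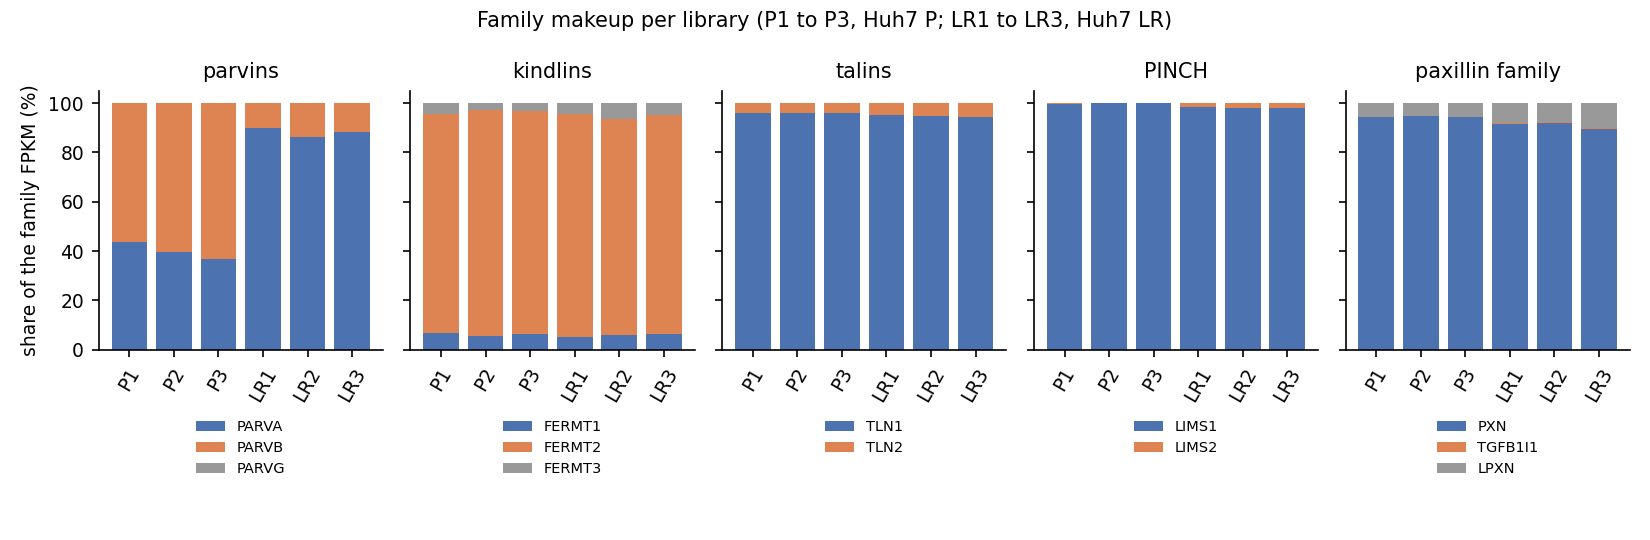
Share of each gene (percent, stacked bars) in the summed FPKM of its family, 1 bar per library of Huh7 P (P1 to P3) and Huh7 LR (LR1 to LR3). The parvin share of PARVA averages 40.0% in Huh7 P and 88.0% in Huh7 LR, and the leading gene of the other 4 families is the same in both lines.

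The count and the FPKM of PARVB did not give the same fold. The ratio of Huh7 P to Huh7 LR was 20.5 on mean CPM and 7.65 on mean FPKM. The length that the authors' FPKM implies for a gene can be computed from its count, its FPKM and the library total. The total used was the sum of the deposited counts, which need not be the authors' total, so the scale is approximate. The mean implied length in Huh7 P was 9494 bases for TLN1, above its longest coding transcript of 8823 bases. For PARVA it was 7911 bases, below its longest coding transcript of 8719 bases. For PARVB the implied length was 5560, 5579 and 5552 bases in the Huh7 P libraries and 2733, 1712 and 2364 bases in the Huh7 LR libraries. It was thus stable across the parental libraries and 2.45 times shorter on average in the resistant ones. Among 14802 genes whose 6 libraries each held 20 counts or more, PARVB had the lowest log2 ratio of implied length (-1.29), and it was the only one shortened more than 2-fold, while 4 were lengthened more than 2-fold. The central 95% of these genes lay between -0.17 and 0.16, and the other detected members lay between -0.04 and 0.04. PARVB has 10 transcripts in GENCODE 29, of which 5 are coding. The longest coding transcript, PARVB-201, has 5429 bases and starts at 44024277, close to the upstream window printed above. The other coding transcripts have 742 to 1591 bases. PARVB-203, with 1591 bases, starts at 44069061, at the downstream window. However, PARVB-204 (1569 bases) and PARVB-210 (1530 bases) start at 43999211 and 44026304, so a shorter length does not pick a start. The Huh7 LR lengths rest on 20 to 33 counts per library, and how the authors set the length is not given in the sources used here.

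**Figure D3:**
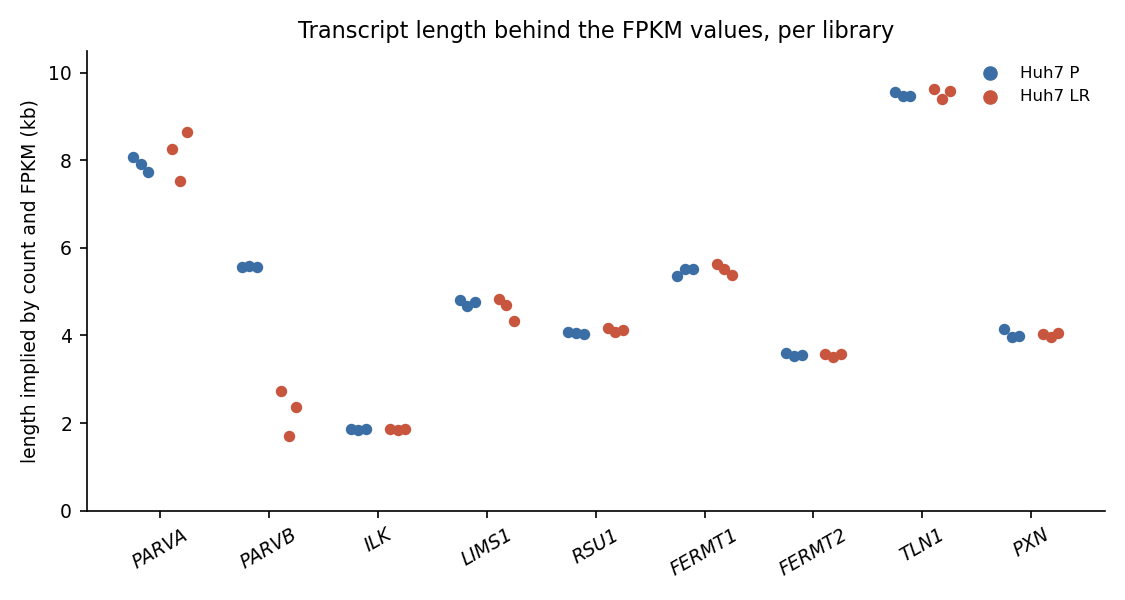
Transcript length (axis in kb) implied by the deposited count and FPKM of each detected member, 1 point per library. PARVB is at 5552 to 5579 bases in Huh7 P and 1712 to 2733 bases in Huh7 LR, and the other members stay near the same length in both lines.

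The partners of the parvins in the complex differed much less. ILK (ENSG00000166333, chromosome 11, 6603708 to 6610874) was at 71.2, 68.5 and 75.2 CPM in Huh7 P and at 69.4, 76.5 and 73.7 CPM in Huh7 LR. The lines overlapped, and the log2 fold change was 0.03 (SE 0.07). TAF10, a subunit of the TFIID complex, lies on the opposite strand and shares 2374 bases (68.1%) of the ILK exons. Without stranded counting, which is not stated, reads of the 2 genes cannot be told apart, and TAF10 was at 13.2 to 16.1 CPM in Huh7 P and 15.8 to 18.4 CPM in Huh7 LR.

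LIMS1, which encodes the adaptor PINCH-1 (ENSG00000169756, chromosome 2, 108534355 to 108687246), was at 42.9, 46.1 and 42.1 CPM in Huh7 P and at 35.6, 35.5 and 41.8 CPM in Huh7 LR. The lines were separated only by the gap between Huh7 P replicate 3 and Huh7 LR replicate 3. The log2 fold change was -0.21 (SE 0.08). It was -0.16 when the counts of the near-identical copies LIMS3 and LIMS4 were added, since reads could be split between them. RSU1 (Ras suppressor 1, a binding partner of PINCH-1, ENSG00000148484, chromosome 10, 16590611 to 16817528) was at 29.0, 32.6 and 32.0 CPM in Huh7 P and at 25.7, 25.6 and 27.2 CPM in Huh7 LR, with no overlap and a log2 fold change of -0.25 (SE 0.08). As the parvin sum was lower and ILK was not, the ratio of ILK to the summed parvin FPKM, taken within each library, was 16.3, 15.3 and 16.1 for the parental line, against 33.2, 21.0 and 27.0 for the resistant line (means 15.9 ± 0.568 and 27.1 ± 6.13, SD, n = 3 per line).

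Both kindlins of the set were lower in Huh7 LR. The remaining kindlin, FERMT3, which is not a member, was at 1.07 ± 0.243 CPM in Huh7 P and 1.16 ± 0.336 CPM in Huh7 LR (log2 fold change 0.11, adjusted p = 0.778). FERMT2 (kindlin-2, the broadly expressed form, ENSG00000073712, chromosome 14, 52857268 to 52952435) was at 38.2, 39.6 and 37.8 CPM in Huh7 P and at 27.8, 29.1 and 29.9 CPM in Huh7 LR. The lines were far apart relative to their spread, with coefficients of variation of 2.37% and 3.71%, and the log2 fold change was -0.41 (SE 0.07). FERMT1 (kindlin-1, the epithelial form, ENSG00000101311, chromosome 20, 6074845 to 6123544) was at 4.26, 3.68 and 4.22 CPM in Huh7 P and at 2.44, 3.18 and 3.20 CPM in Huh7 LR, with a log2 fold change of -0.46 (SE 0.16).

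TLN1 (talin-1, ENSG00000137076, chromosome 9, 35696948 to 35732395) was at 463, 432 and 403 CPM in Huh7 P and at 469, 592 and 524 CPM in Huh7 LR, with a log2 fold change of 0.29 (SE 0.09). As for PARVA, Huh7 LR replicate 1 lay just above Huh7 P replicate 1. PXN (paxillin, ENSG00000089159, chromosome 12, 120210439 to 120265771) was at 82.6, 82.4 and 79.3 CPM in Huh7 P and at 79.6, 79.4 and 73.8 CPM in Huh7 LR. These values overlapped, with a log2 fold change of -0.07 (SE 0.07).

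**Figure D4:**
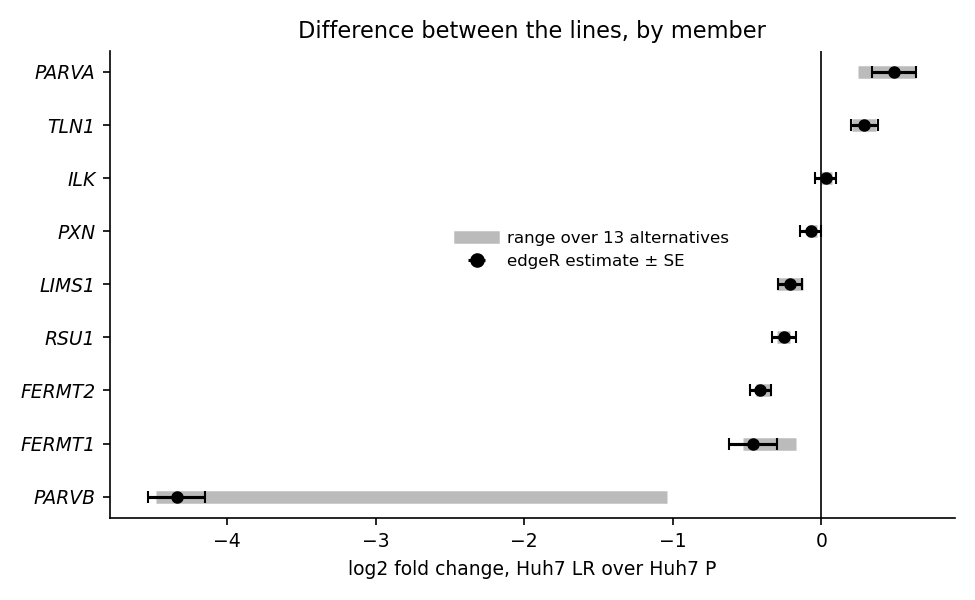
Log2 fold change of Huh7 LR over Huh7 P for the 9 members tested, from the edgeR fit across all genes (points with SE bars), and its range over 13 alternatives (grey). The range of PARVB reaches -1.04 on log2(FPKM + 1), a scale that understates changes of low genes and carries the shorter implied length of PARVB in Huh7 LR. PARVB is at -4.34 and the other 8 members lie between -0.46 and 0.49.

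Of the 10 members, 9 passed the filter on low counts. In the edgeR quasi-likelihood fit, 2 were called higher in Huh7 LR (PARVA and TLN1) and 4 lower (PARVB, RSU1, FERMT1 and FERMT2) at an adjusted p under 0.05, while the shares of higher and lower calls across all 17531 tested features were 23.3% and 22.4%. These features are called all genes below and include loci without an annotated gene. The study called genes past 2-fold at p under 0.001, and that level was applied here to the adjusted p. At this stricter level, the count was 1 (PARVB), where 4.43% of genes were called higher and 1.78% lower. All Huh7 LR libraries lay above all Huh7 P libraries for 2 members and below for 5, where the shares of all genes were 28.2% and 27.7%. Since this contrast chose the members, nothing is read from these counts. The median log2 fold change was -0.21 over the 9 members and 0.00461 over all genes tested, and the median absolute change was 0.29 and 0.33. PARVB had the 11th lowest log2 fold change of all genes tested. These calls are no measure of stability, but some turned on single libraries. PARVA was not called without Huh7 LR replicate 2 or 3 or without Huh7 P replicate 2 or 3 (log2 fold changes 0.35, 0.46, 0.49 and 0.44), nor was TLN1 without Huh7 LR replicate 3 or Huh7 P replicate 2 or 3 (0.29, 0.29 and 0.24). FERMT1 was not called without replicate 1 or 3 of either line (-0.53 to -0.35 over all single libraries left out), nor RSU1 without Huh7 P replicate 2 or 3 (-0.22 and -0.24), whereas LIMS1 was called only without Huh7 LR replicate 3 (-0.30). In both limma fits on FPKM, PARVA and FERMT1 were not called.

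The members were ordered by FPKM within each line. In Huh7 P the mean FPKM was 45.1 for TLN1, 38.1 for ILK, 20.0 for PXN, 10.7 for FERMT2, 9.08 for LIMS1, 7.58 for RSU1, 1.44 for PARVB, 0.957 for PARVA and 0.733 for FERMT1, and PARVG was at 0. The FPKM values of neighbours in this order did not overlap across the 3 libraries. In Huh7 LR it was 56.0 for TLN1, 39.7 for ILK, 19.6 for PXN, 8.29 for LIMS1, 8.23 for FERMT2, 6.41 for RSU1, 1.34 for PARVA, 0.540 for FERMT1 and 0.188 for PARVB. There, LIMS1 and FERMT2 overlapped and the other neighbours did not. On this scale PARVB stood above PARVA in the parental line and below FERMT1 in the resistant line. The order depends on the length used, since on CPM per kilobase of annotated exons FERMT1 (0.757) stood above PARVA (0.596) and LIMS1 (5.62) above FERMT2 (4.53) in Huh7 P.

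Other adhesion genes, none of them a member, were counted in 8 lists, which were written with earlier results of these data known. Of 88 genes listed, 81 were tested, of which 27 rose in Huh7 LR (33.3%), 17 fell (21.0%) and 37 did not pass an adjusted p under 0.05 in edgeR, against 23.3% and 22.4% of all genes. Their median log2 fold change was 0.10. At the stricter level, 3 rose (ITGB3, TNS1 and CYR61, also named CCN1) and 2 fell (FLNA and FHL2).

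Among the paralogues of the members, 3 of 6 tested rose and none fell (median log2 fold change 0.66). TLN2, the second talin, rose by a log2 fold change of 0.62 (adjusted p = 0.000922). LPXN (leupaxin, a paxillin relative) rose by 0.70 (adjusted p = 0.00316), and its share of the paxillin family FPKM was 5.40% in Huh7 P and 8.79% in Huh7 LR. The third was LIMS2, which encodes PINCH-2 and stayed at or below 2.01% of the summed LIMS1 and LIMS2 FPKM in every library. The LIMS1 copies LIMS3 and LIMS4 were left out of that sum, and LIMS3 was at 2.41 ± 0.834 CPM in Huh7 P and 3.29 ± 0.399 CPM in Huh7 LR.

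Of the 5 integrin beta subunits tested, 2 rose and 1 fell (median 0.10). ITGB3, the beta subunit of the vitronectin receptor, rose from 6.94 ± 0.852 to 14.7 ± 1.63 CPM (adjusted p = 5.92e-05). ITGB8 rose by a log2 fold change of 0.67 (adjusted p = 0.000674), and ITGB5 fell by 0.25 on the log2 scale (adjusted p = 0.0141), a call that was lost without Huh7 LR replicate 3 or Huh7 P replicate 2 (-0.24 and -0.23). ITGB1, the most abundant beta subunit by CPM, was at 551 ± 42.1 CPM in Huh7 P and 592 ± 9.62 CPM in Huh7 LR (adjusted p = 0.279), and was chosen for mention after its values were seen.

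In the integrin activation list, 1 of 6 genes tested rose and 3 fell (median -0.20). The number called lower was 1 without Huh7 LR replicate 3 or without Huh7 P replicate 2. ITGB1BP1, which encodes ICAP-1, an inhibitor that competes for the beta-1 tail, fell by 0.42 on the log2 scale (adjusted p = 0.00123). KANK2, a talin-binding protein, fell by 0.25 on the log2 scale (adjusted p = 0.0381) and SHARPIN, an inhibitor of integrin activation, rose by 0.20 (adjusted p = 0.0464). The SHARPIN call was lost without any 1 of 5 of the libraries, Huh7 LR replicate 1 being the exception, with log2 fold changes of 0.16 to 0.20, and also under the replicate block (0.19) and with no filter on low counts. The KANK2 call was lost without Huh7 LR replicate 1 (-0.18) or 3 (-0.25) or Huh7 P replicate 1 (-0.22) or 2 (-0.24), and with limma on either FPKM scale (-0.19 and -0.17).

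Of 11 focal adhesion kinase and adaptor genes, 4 rose and 3 fell (median -0.07). NCK2, an SH2 and SH3 adaptor that binds PINCH-1, rose from 17.9 ± 1.20 to 35.7 ± 5.67 CPM (adjusted p = 4.53e-05). NEDD9, a scaffold of the p130Cas family, rose by a log2 fold change of 0.85 (adjusted p = 0.00265). DOCK1, a Rac exchange factor, and PTPN12, a phosphatase of p130Cas, fell by 0.38 and 0.35 on the log2 scale (adjusted p = 0.0012 and 0.0034).

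Of 12 genes tested among the parvin partners and the Rac arm, 4 rose and 1 fell (median 0.17). TESK1, a cofilin kinase that PARVA binds, rose from 9.02 ± 0.702 to 14.8 ± 1.33 CPM (adjusted p = 0.000336), and RAC1 rose by a log2 fold change of 0.37 (adjusted p = 0.00342). PAK2, a Rac effector kinase, fell by 0.18 on the log2 scale (adjusted p = 0.0429), a call that held without Huh7 LR replicate 1 but not without any other single library (-0.21 to -0.16), nor under the replicate block (-0.18), another count filter or limma on FPKM. Of 6 kinases and regulators linked to ILK signalling, RICTOR, a subunit of mTORC2, fell by 0.37 on the log2 scale (adjusted p = 0.0069). None rose, 5 did not pass, and the median was -0.08. However, 1 was called higher without Huh7 LR replicate 1 or 2, and 2 were called lower without Huh7 LR replicate 2.

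The actin linkers held the widest range, with 7 of 21 genes rising and 6 falling (median 0.08). FLNA (filamin A, an actin crosslinker that binds beta integrin tails) fell from 198 ± 17.3 to 38.0 ± 10.7 CPM (log2 fold change -2.38, SE 0.17, adjusted p = 1.72e-06). FHL2, a LIM-domain protein of adhesions and the nucleus, fell from 2.44 ± 0.313 to 0.973 ± 0.159 CPM (adjusted p = 0.000404). The tensins TNS1 and TNS3, which bind actin and beta integrin tails, rose by log2 fold changes of 1.46 and 0.68 (adjusted p = 1.45e-05 and 8.26e-05).

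Of 14 genes tested among the SRF and MRTF pathway genes, which respond to the actin state, 6 rose and 2 fell (median 0.19). CYR61 and CTGF, secreted matricellular proteins, rose by log2 fold changes of 1.43 and 0.78 (adjusted p = 9.37e-05 and 3.45e-05). TPM2 (beta-tropomyosin) and ACTG1 (gamma-actin) fell by 0.73 and 0.66 on the log2 scale (adjusted p = 0.000209 and 2.1e-05). The list thus held genes that moved in both directions.

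**Figure D5:**
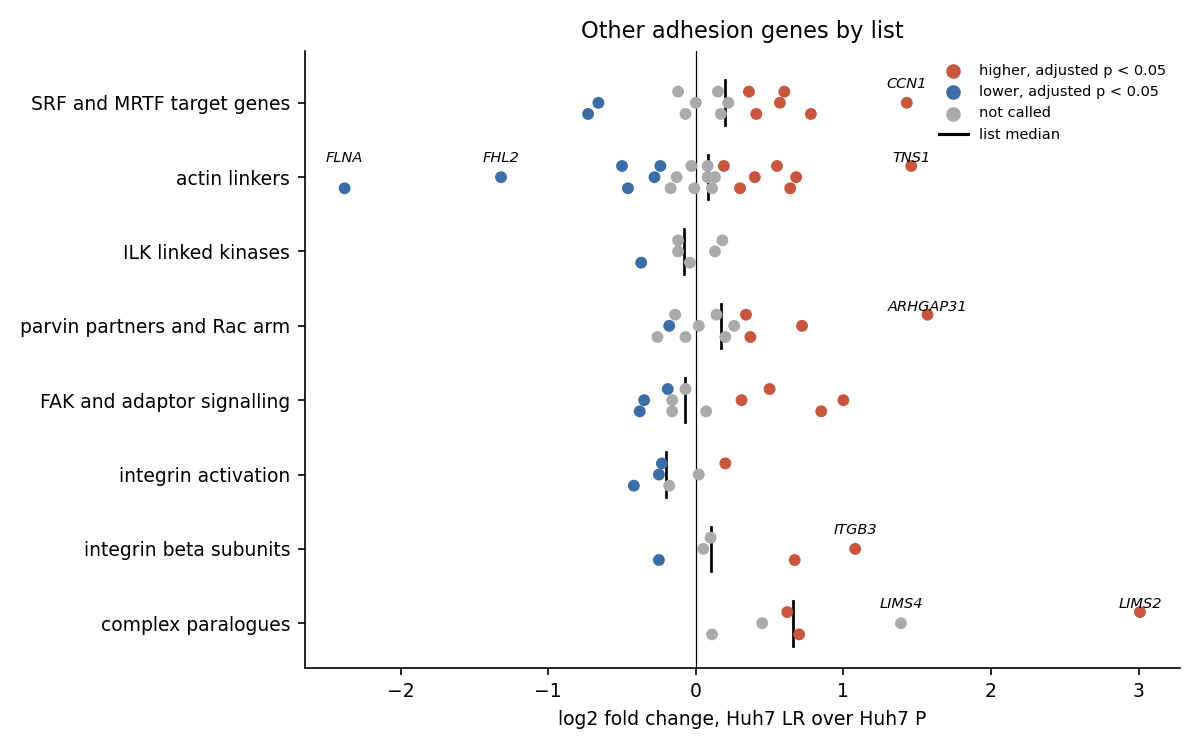
Log2 fold change of Huh7 LR over Huh7 P for the tested genes of the 8 adhesion lists, 1 point per gene, red where called higher, blue where called lower and grey otherwise, with the list median as a line and CYR61 under its newer symbol CCN1. FLNA is lowest at -2.38, and in every list but the paralogues and the ILK-linked kinases some genes rose and others fell.

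Genes next to the members gave a view of the genome around them. Within 250 kb of a member, 62 protein coding genes were tested, of which 24 rose, 19 fell and 19 did not pass (median 0.09), where 23.3% of all genes were called higher and 22.4% lower. The shares of all genes cover every tested feature, including loci without an annotated gene, and not protein coding genes only. Next to PARVB and PARVG, PNPLA3, a lipid droplet acyltransferase and lipase, was at 35.0 ± 2.96 CPM in Huh7 P and 67.3 ± 12.7 CPM in Huh7 LR (adjusted p = 0.000107). SAMM50, of the mitochondrial outer membrane assembly machinery, was at 45.6 ± 1.15 and 38.7 ± 4.30 CPM (adjusted p = 0.0421). The log2 fold changes were 0.94 for PNPLA3 and -0.24 for SAMM50, against -4.34 for PARVB, and both neighbours were chosen for mention after their values were seen. At the stricter level, 2 neighbours were called. CUBN, the endocytic receptor cubilin, lies next to RSU1 and rose from 0.542 ± 0.248 to 18.2 ± 4.94 CPM (log2 fold change 5.05, SE 0.31), while RSU1 itself had a log2 fold change of -0.25. HPX, the heme carrier hemopexin, lies near ILK and rose from 15.2 ± 1.21 to 42.6 ± 5.09 CPM.

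The markers of hepatocytes and hepatocellular carcinoma were abundant in both lines, with a summed level of 39264 to 49037 CPM in Huh7 P and 51346 to 53381 CPM in Huh7 LR, and 5 of the 8 markers were called higher. Leukocyte markers summed to 62.2 to 67.2 CPM in Huh7 P and 8.96 to 11.5 CPM in Huh7 LR, and 1 of 3 tested was called lower. This sum was almost entirely LYZ, at 60.2 to 65.5 CPM in Huh7 P and 7.74 to 10.1 CPM in Huh7 LR, whereas the other markers tested, CD74 and CORO1A, had log2 fold changes of 0.52 and -0.62 (adjusted p = 0.395 and 0.112). HLA-DRA, TYROBP and CD48 were at 0 in all libraries. Fibroblast markers summed to 2.16 to 2.28 and 5.02 to 8.02 CPM, 2 of 2 tested were called higher, and DCN, THY1 and POSTN were at 0. The means in Huh7 P and Huh7 LR were 1.28 and 4.59 CPM for COL1A1 and 0.808 and 1.44 CPM for PDGFRB. Endothelial markers summed to 102 to 107 and 119 to 128 CPM, 2 of 3 tested were called higher, and CDH5, TEK and KDR were at 0. The part of these marker changes in the members' values was not tested.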

How the data were processed

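RNA was sequenced in 3 samples of Huh7 P and 3 of Huh7 LR from poly(A)-selected libraries. The authors deposited a table with a count and an FPKM value per gene and library. The deposited counts are whole numbers without normalisation, and the deposited FPKM values were normalised by the authors to gene length and sequencing depth. The submitters' processing notes name TopHat2, Cufflinks, DESeq and the build mm10, although 19974 of 19974 annotated identifiers were found in human GENCODE 29, which gave positions on GRCh38. Strand use in counting is not given in the sources used here. The table also held 6210 loci without an annotated gene, which took 2.86% to 3.35% of counts and stayed in the test, and 34 lines of annotation text, which were skipped.

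Counts were tested in R 4.3.3 with edgeR 4.0.16 (filterByExpr with minimum count 10 and minimum total 15, TMM factors 0.977 to 1.03, quasi-likelihood test, Benjamini-Hochberg adjustment over 17531 genes and loci). The biological coefficient of variation was 12.7%. Alternatives used DESeq2 1.42.0, limma 3.58.1 on log2(FPKM + 0.1) and log2(FPKM + 1), other filters and size factors, a replicate block and each library left out. On simulated counts of the Huh7 LR and Huh7 P comparison over 17245 genes, edgeR recovered 85 of 100 genes changed 2-fold and 99 of 100 changed by a log2 fold change of 2. At the same adjusted p under 0.05, it also called 20 unchanged genes. The changed genes were drawn only above a minimum mean level, and a call in either direction counted as recovered. The members and lists were chosen with earlier results of these data known. Named from each list were the genes called at an adjusted p under 0.001 with a change above 2-fold, and the 2 largest called changes in each direction with at least 1 CPM in a line. The neighbours called at the former level and the 5 genes most like PARVB were also named. RefSeq promoter windows came from GRCh38.p14.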

Additional observations from a re-analysis of the deposited data

How the results depend on the processing

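Over the settings run, no value reversed its direction. The leading results gave 110 values for 10 results, of which 15 moved, a count by more than 1.5 times or a share by more than 1 SD. Among the list genes named by the stated rule, only ITGB5, SHARPIN, KANK2 and PAK2 lost their call in any setting, in 25 values together. LIMS2, which that rule did not name, was not followed singly. Its counts in Huh7 P were 8, 0 and 2, so it left the test with at least 10 counts in every library. In that setting 2 paralogues were called higher, against 3 as reported. The members' calls, given as counts only, were lost in 6 of 13 settings each for PARVA and FERMT1, 3 for TLN1 and 2 for RSU1. The number of members called higher was 2, but 1 with limma on either FPKM scale, 0 at the stricter level (adjusted p under 0.001 and above 2-fold), and 0 to 2 with each library left out (0 without Huh7 LR replicate 3, Huh7 P replicate 2 or Huh7 P replicate 3). The number called lower was 4, but 3 with limma on either FPKM scale (without FERMT1), 1 at the stricter level and 2 to 4 with each library left out (2 without Huh7 P replicate 3). For the adhesion lists, 27 genes were higher and 17 lower, against 3 and 2 at the stricter level. With each library left out, 23 to 28 were higher and 10 to 19 lower (10 without Huh7 P replicate 2 and 11 without Huh7 LR replicate 3). The PARVA share of the parvins was 40.0% and 88.0% on FPKM and 35.3% and 94.0% on CPM per kilobase of exons. The PARVB log2 fold change was -4.48 to -4.19 with each library left out, and -2.45 and -1.04 on log2(FPKM + 0.1) and log2(FPKM + 1). These scales understate the change of low genes and carry the shorter length behind the FPKM of PARVB, since the ratio of Huh7 P to Huh7 LR was 7.65 on mean FPKM and 20.5 on mean CPM with no pseudocount. The causes of the other moves were not tested, beyond the fewer samples of a library left out and the stricter level. The LIMS1 sum and the comparison of CPM with FPKM for PARVB were chosen after seeing the data.

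Whether the replicate numbers pair the samples is not given in the sources used here. Deviations from the line means correlated at 0.029, 0.0314 and 0.0317 between samples with the same number and at -0.0279 to -0.00213 otherwise, so each sample correlated best with its own number, which is a hint from the data only. With the replicate block, 4089 genes were called higher and 4033 lower, against 4093 and 3923 without it. For the members it was 2 and 4 under the block, and for the adhesion lists 26 and 17. Among the genes named from the lists, the calls of SHARPIN (0.19) and PAK2 (-0.18) were lost under the block.

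Depth limits PARVG, with 0 counts, and the implied length of PARVB in Huh7 LR.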

Other observations

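The genes whose log2 CPM followed PARVB most closely over the 6 libraries were NBL1 (Pearson's r = 0.9997), RTEL1 (0.9995), NOLC1 (0.9993), HNRNPDL (0.9993) and TFB2M (0.9992). The 6 libraries fall into 2 lines, so r mostly follows the difference between the lines, and no p-value is given. Of 17530 other genes and loci, 201 had r above 0.99. The sizes differed, since NBL1 (a secreted BMP antagonist) had a log2 fold change of -1.24 and NOLC1 (a nucleolar phosphoprotein) one of -0.72, against -4.34 for PARVB.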
